A study of Mus musculus with 14 samples.

Results

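Axin2, Rnf43, Znrf3, Nkd1, Notum, Sp5, Lgr4, Sox9, Cd44 and Myc are feedback regulators and targets of the Wnt pathway, and they are described here in sorted mouse intestinal stem cells. These 10 genes were taken by symbol from the 55335 genes of each of 2 count tables. Each symbol had a single identifier, and it was the same in both tables. The RNA came from cells sorted for the EGFP that marks Lgr5 expression.

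In the first experiment every mouse carried a tamoxifen-inducible Cre expressed with GFP from the Lgr5 locus, together with floxed alleles of Chrm3, the gene of the M3 muscarinic receptor for acetylcholine. The groups were KO ES, KO NT, WT ES and WT NT, with 2 libraries each. KO mice were given tamoxifen (TAM) and WT mice vehicle 3 days before the ES procedure, so that genotype and injection cannot be told apart. The labels do not spell out ES or NT, and no source used here gives the age of these mice. In the second experiment mice with the same Lgr5 reporter and no floxed Chrm3 named were 18 months old (old) or 2 months old (young), with 3 libraries each. Nothing in the labels ties the libraries to separate animals, so every p-value below measures the spread between libraries, which may be technical.

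Wnt ligands bind Frizzled receptors with Lrp5 or Lrp6 and stop the destruction complex from degrading beta-catenin, which then acts with TCF/LEF proteins on target genes. In the intestinal crypt this signal keeps Lgr5-positive stem cells dividing. Several of its targets are inhibitors of the pathway and so form feedback loops. Axin2 is a scaffold of the destruction complex, Rnf43 and Znrf3 are ubiquitin ligases that remove Frizzled receptors from the cell surface, Nkd1 binds Dishevelled, and Notum is a secreted enzyme that strips the lipid from Wnt proteins. Sp5 is a transcription factor that dampens other Wnt target genes. Lgr4 is a receptor for R-spondins, the ligands that hold Rnf43 and Znrf3 back. Sox9, Cd44 and Myc are targets that act in crypt cell identity, adhesion and growth.

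Of the 10 genes, 5 lie on chromosome 11. In GRCm38 (GENCODE M21), Axin2 spans chr11:108920349-108950783 and Rnf43 spans chr11:87662722-87735539, both on the plus strand. Znrf3 (chr11:5276324-5444847, minus strand), Notum (chr11:120653788-120661175, minus strand) and Sox9 (chr11:112782224-112787760, plus strand) complete the chromosome 11 group. Sp5 (chr2:70474923-70477729), Lgr4 (chr2:109917647-110014257), Cd44 (chr2:102811141-102901665), Nkd1 (chr8:88521354-88594884) and Myc (chr15:61985391-61990374) lie elsewhere. Axin2, Cd44, Rnf43 and Notum overlap other genes on the opposite strand, and Rnf43 and Nkd1 also overlap a gene on their own strand. The libraries were strand-specific, but no source used here says whether strand was used in counting, so reads of overlapping genes may be shared.

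The sequences upstream of Axin2 and Sp5 are shown. Axin2 carried the clearest differences between groups. Sp5 was the nearest to Axin2 in pattern over the Chrm3 libraries, among those of the 10 genes that were ranked. Over the ageing libraries Sp5 was the farthest of these genes from Axin2, as given further on. Each is the 250 bases before the RefSeq start (GRCm38.p6), 5′ to 3′ on the plus strand, at chr11:108920099-108920348 for Axin2 and chr2:70474673-70474922 for Sp5. The letters CTTTGA, a core of TCF/LEF sites, are in capitals where they occur on either strand.
Axin2: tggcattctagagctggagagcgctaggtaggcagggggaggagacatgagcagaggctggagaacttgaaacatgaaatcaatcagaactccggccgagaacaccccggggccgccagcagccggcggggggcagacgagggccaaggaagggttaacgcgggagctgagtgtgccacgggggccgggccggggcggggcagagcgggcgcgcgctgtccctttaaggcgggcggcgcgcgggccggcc
Sp5: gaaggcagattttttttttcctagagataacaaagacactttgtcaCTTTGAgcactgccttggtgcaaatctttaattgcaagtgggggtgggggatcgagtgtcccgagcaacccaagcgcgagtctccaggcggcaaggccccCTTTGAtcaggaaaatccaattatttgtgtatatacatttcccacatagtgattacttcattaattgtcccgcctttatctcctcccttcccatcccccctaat
Sp5 held CTTTGA at 204 and 104 bases before its start, both on the forward strand. Of 32851 such windows in the RefSeq table, 13.8% held these 6 letters at least once and 1.37% held them 2 or more times. The Axin2 window held none, nor did the windows of Rnf43 (2 starts), Nkd1, Lgr4 and Cd44. No window of Znrf3, Notum, Sox9 or Myc was used here.

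Total counts were 26.7 to 36.9 M per library in the Chrm3 experiment and 32.4 to 35.8 M in the ageing experiment. Counts were fitted with edgeR's quasi-likelihood test, and a gene is said to have passed, risen or fallen when its Benjamini-Hochberg adjusted p over all tested genes was under 0.05. A level is given in CPM, counts relative to the library's TMM-scaled total, differences are log2 fold changes, and ± marks an SE on a log2 fold change and an SD on a level. The KO label was checked on Chrm3, which had 256 and 213 counts in KO ES against 357 and 291 in WT ES (-0.68 ± 0.17, adjusted p = 0.0363), and, without ES, 343 and 254 in KO NT libraries against 355 and 386 in WT NT libraries (-0.50 ± 0.16, adjusted p = 0.119). The call in ES was lost without KO ES replicate 2, WT ES replicate 1, WT ES replicate 2, WT NT replicate 1 or WT NT replicate 2 (adjusted p = 0.243, 0.171, 0.125, 0.0640 and 0.0661). No source used here says which part of Chrm3 was deleted. Lgr5, the gene of the sort, was at 90.8 to 133 CPM in the Chrm3 libraries and 80.3 to 111 CPM in the ageing libraries, while stromal and endothelial markers summed to at most 9.25 CPM in any library. Markers of other epithelial cell types were present in every library. Paneth cell markers summed to 7918 to 12842 CPM, beside 11238 to 16487 CPM for stem cell markers. Goblet cell markers summed to 2539 to 10349 CPM and enterocyte markers to 1015 to 1889 CPM. The KO NT libraries were the least alike pair (chi-square per degree of freedom 25.8, against 3.59 for the WT NT pair), and log2 fold changes that rest on them are followed by the values with KO NT replicate 1 or replicate 2 left out.

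Levels were first set in order within a group, per kilobase of exon so that genes of different length can be compared. In WT NT, Axin2 stood highest at 74.2 ± 1.64 CPM per kb (n = 2), followed by Myc at 50.5 ± 1.74 and Lgr4 at 38.4 ± 0.145. Sox9 (30.2 ± 0.962), Rnf43 (26.7 ± 0.554) and Cd44 (22.9 ± 0.214) formed the middle of the order in CPM per kb. Sp5 (7.97 ± 0.00457), Znrf3 (5.18 ± 0.138) and Nkd1 (0.759 ± 0.145 CPM per kb) were low, and Notum had no counts. No neighbours in this order overlapped in WT NT. The scaffold of the destruction complex was thus measured at the highest level per length of the 10 genes, and Axin2 also led in each of the other 5 groups. In KO NT the order from the second to the fifth place was not resolved, since Lgr4, Myc and Sox9 each overlapped the next gene, the last of them Rnf43. The order in young was Axin2 at 59.7, Lgr4 at 38.2, Myc at 35.7, Rnf43 at 25.6, Sox9 at 25.1, Cd44 at 18.9, Sp5 at 6.25, Znrf3 at 4.90, Nkd1 at 1.19 and Notum at 0.0202 CPM per kb, with Rnf43 and Sox9 overlapping.

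**Figure D1:**
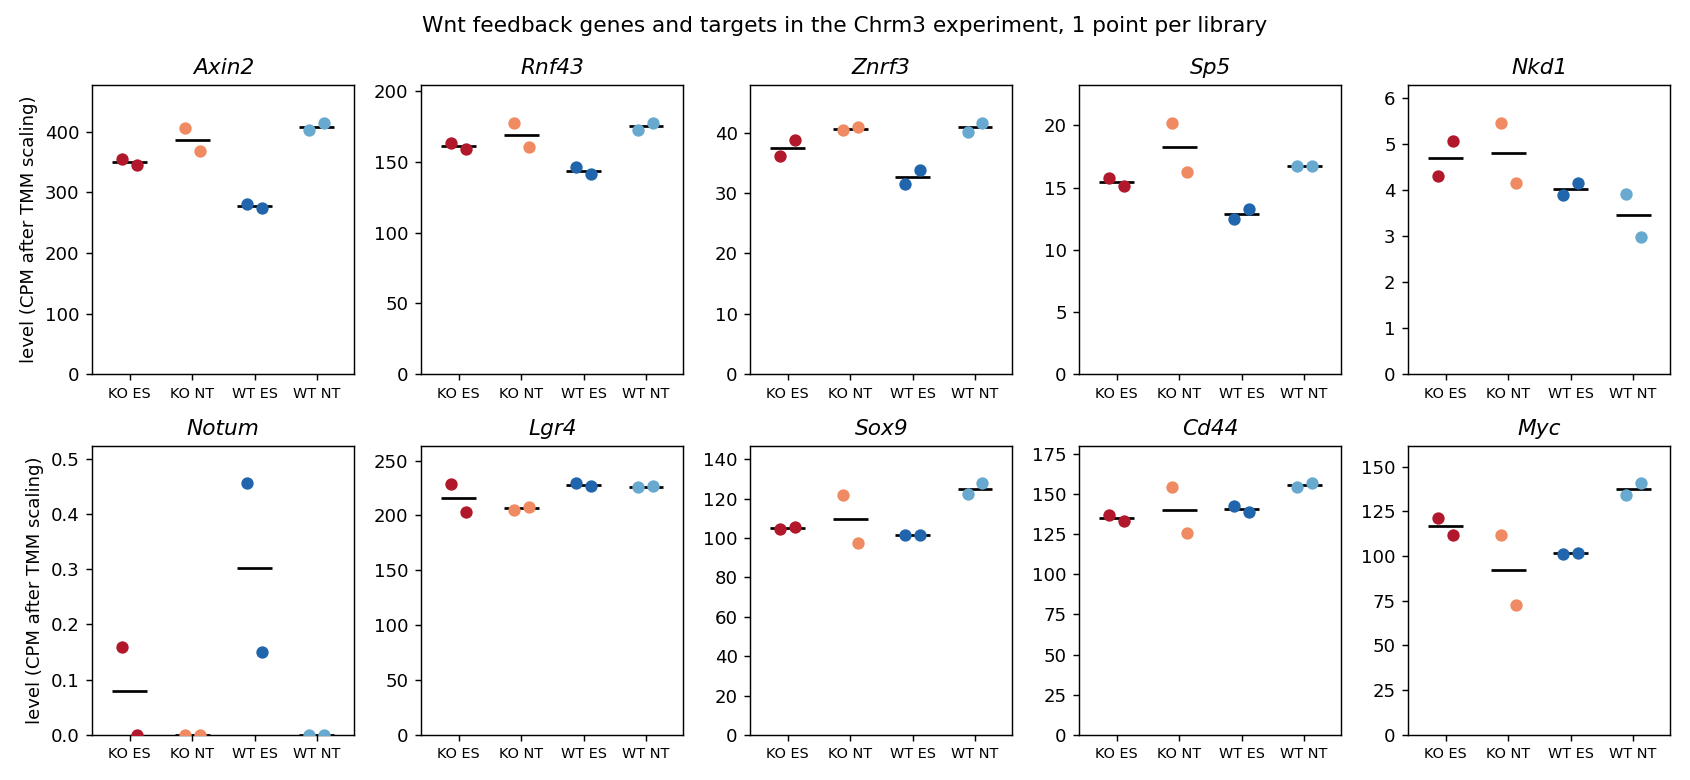
Level of each of the 10 genes (y axes, CPM after TMM scaling, starting at 0) in the groups KO ES, KO NT, WT ES and WT NT (x axes). A point is 1 library and a bar is the mean of 2 libraries. Axin2 lies at 274 to 280 CPM in WT ES and at 346 CPM or more in the other groups.

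The first comparison asked what ES did to these genes in WT mice. Axin2 and Rnf43 fell, and the other 7 tested genes did not pass. The count of 2 of 9 tested genes lower compares with 1.39% of all 17364 tested genes called lower, and 3.48% called in either direction. Notum, the tenth gene, was removed by the count filter and is described by its counts further on.

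Axin2 had 280 and 274 CPM in WT ES, against 402 and 415 CPM in WT NT. Both ES libraries lay far below both NT libraries. The fall was -0.56 ± 0.06 (95% interval -0.70 to -0.42, adjusted p = 0.00181), a 0.678-fold level. The call was lost only without WT NT replicate 2, among the 8 libraries left out in turn (-0.54, adjusted p = 0.0597). Rnf43 had 146 and 141 CPM in WT ES, against 173 and 178 CPM in WT NT. Its groups did not overlap either, but the distance was smaller, -0.28 ± 0.06 (adjusted p = 0.0406). The Rnf43 call was lost without KO ES replicate 1 or 2 (adjusted p = 0.0561 and 0.0553), WT ES replicate 1 or 2 (0.164 and 0.228) or WT NT replicate 1 or 2 (0.238 and 0.315), and with no count filter (0.135).

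Znrf3, the partner ligase of Rnf43, had 31.6 and 33.9 CPM in WT ES, against 40.1 and 41.7 CPM in WT NT. The difference of -0.32 ± 0.08 was no smaller than that of Rnf43 but missed the threshold (adjusted p = 0.0506). Sp5 had 12.5 and 13.3 CPM in WT ES, against 16.7 and 16.7 CPM in WT NT (-0.38 ± 0.12, adjusted p = 0.127). Both of these negative regulators were thus lower in each ES library than in each NT library. Nkd1, a Dishevelled-binding inhibitor, was the exception among the intracellular feedback genes, with 3.90 and 4.15 CPM in WT ES, against 3.93 and 2.99 CPM in WT NT (0.21 ± 0.23, adjusted p = 0.701). Its groups overlapped, and its interval of -0.30 to 0.72 covers changes in either direction.

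Lgr4 had 229 and 227 CPM in WT ES, against 226 and 227 CPM in WT NT. The R-spondin receptor was thus measured at nearly the same level, and the interval of its log2 fold change of 0.01 ± 0.06 ran from -0.13 to 0.16 (adjusted p = 0.951). Among the targets, Myc, a growth-promoting transcription factor, had 101 and 102 CPM in WT ES, against 134 and 141 CPM in WT NT (-0.44 ± 0.15, adjusted p = 0.142). Sox9, a transcription factor of the crypt base, had 102 and 102 CPM in WT ES, against 122 and 128 CPM in WT NT (-0.30 ± 0.09, adjusted p = 0.106). Cd44, an adhesion receptor for hyaluronan, had 143 and 138 CPM in WT ES, against 154 and 156 CPM in WT NT (-0.15 ± 0.09, adjusted p = 0.416). The 3 targets were lower in both ES libraries and did not pass. Znrf3, Sox9 and Myc passed when KO NT replicate 1 was left out (adjusted p = 0.0355, 0.0135 and 0.00301) or KO NT replicate 2 (0.0402, 0.0161 and 0.00358), although neither library belongs to the comparison.

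Among the 9 genes, 7 had a negative and 2 a positive log2 fold change, with a median of -0.30, against -0.003 over all tested genes. The groups did not overlap for 8 of the 9 genes, of which 7 were lower in ES. The background for this is high, since 52.8% of all tested genes did not overlap and 26.9% did so with a lower ES group. An unadjusted p under 0.05 was reached by 6 of the 9 genes, against 18.6% of all tested genes.

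**Figure D2:**
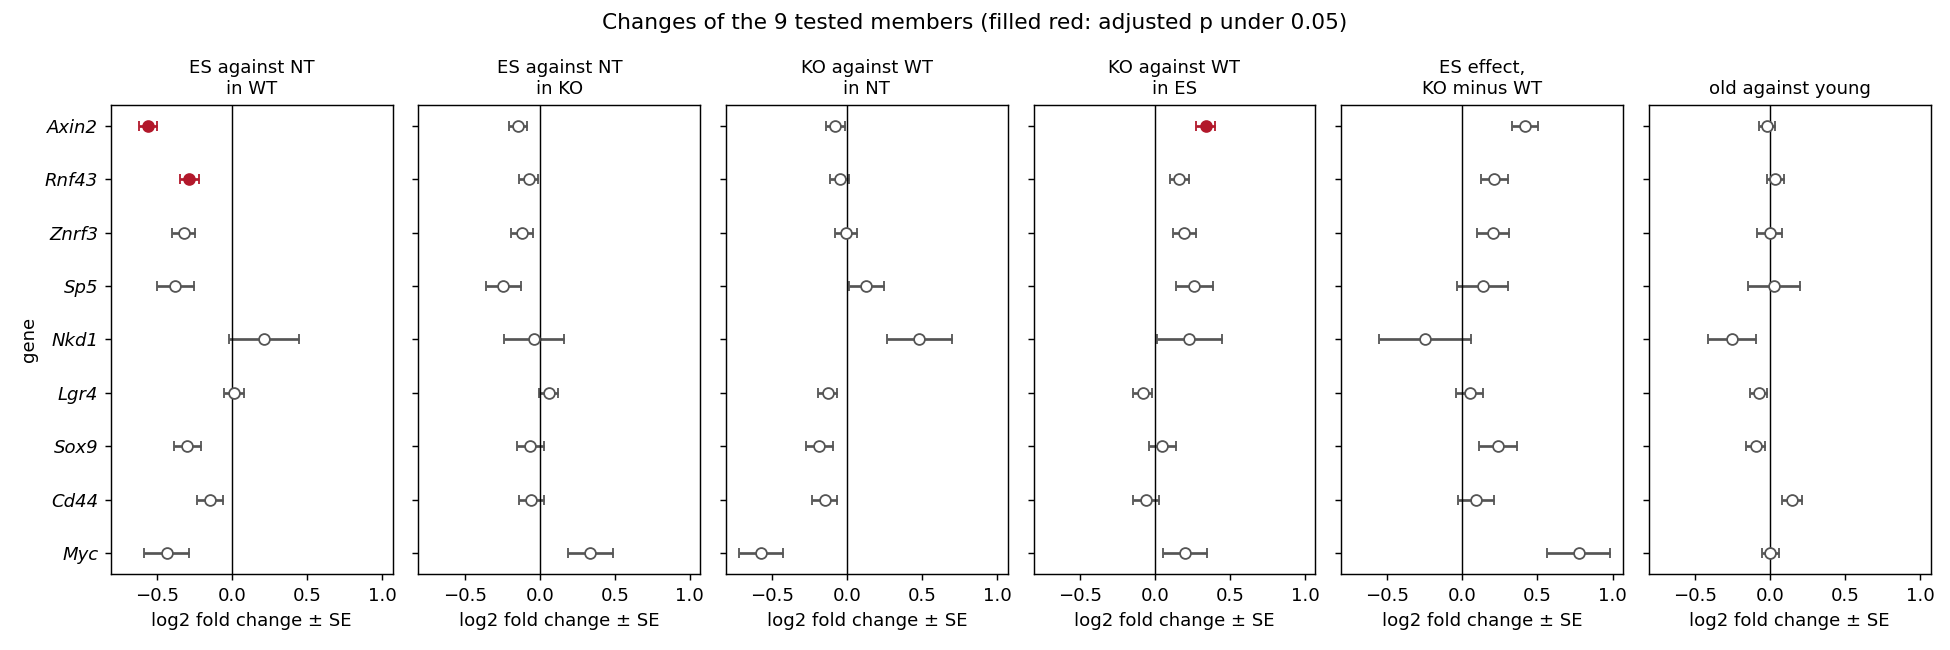
Log2 fold change ± SE (x axes) of the 9 tested genes (rows) in the 6 comparisons (panels), with filled red points for adjusted p under 0.05. Axin2 and Rnf43 pass in ES against NT in WT, Axin2 passes in KO against WT in ES, and no gene passes in the other 4 panels.

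ES changed none of these genes past the threshold in KO mice. The count was 0 of 9 with edgeR, DESeq2 and limma-voom alike, against 0.513% of all tested genes by edgeR. An unadjusted p under 0.05 was reached by 2 of the 9 genes, against 8.6% of all tested genes. Axin2 had 355 and 346 CPM in KO ES, against 406 and 368 CPM in KO NT. Both ES libraries were below both NT libraries, but by less than in WT, with -0.14 ± 0.06 (adjusted p = 0.534). Rnf43 had 163 and 159 CPM in KO ES, against 178 and 161 CPM in KO NT (-0.07 ± 0.06, adjusted p = 0.868). Znrf3 had 36.2 and 38.8 CPM in KO ES, against 40.4 and 40.9 CPM in KO NT (-0.12 ± 0.08, adjusted p = 0.773). Neither of these Frizzled-removing ligases passed. The groups overlapped for Rnf43, while Znrf3 was lower in both ES libraries, with a 95% interval of -0.29 to 0.05.

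Myc had 121 and 112 CPM in KO ES, against 112 and 72.5 CPM in KO NT (0.34 ± 0.15, adjusted p = 0.561). Its 2 KO NT libraries differed from each other by more than the groups did. Without KO NT replicate 1 Myc passed (0.68, adjusted p = 0.00157), and without KO NT replicate 2 its log2 fold change was 0.06 (adjusted p = 0.865), so that the value rests on which KO NT library is used. Sp5 had 15.8 and 15.2 CPM in KO ES, against 20.2 and 16.2 CPM in KO NT (-0.24 ± 0.12, adjusted p = 0.625). Lgr4 (0.06 ± 0.06), Nkd1 (-0.04 ± 0.20), Sox9 (-0.06 ± 0.09) and Cd44 (-0.05 ± 0.09) had overlapping groups. The median of the 9 log2 fold changes was -0.06.

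The KO NT library left out set the size, and for some genes the sign, of these ES effects. Without KO NT replicate 1 the log2 fold change was -0.07 for Axin2 and -0.07 for Sp5, and without KO NT replicate 2 it was -0.22 for Axin2 and -0.39 for Sp5. The sign turned for 4 genes: without KO NT replicate 1 the values were 0.002 for Rnf43, 0.18 for Nkd1, 0.11 for Sox9 and 0.10 for Cd44, and without KO NT replicate 2 they were -0.15, -0.22, -0.22 and -0.20 in the same order of genes. Znrf3 (-0.13 without replicate 1 and -0.11 without replicate 2) and Lgr4 (0.05 and 0.06) moved little. Apart from Myc without replicate 1, none of these passed.

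The next comparison asked how KO differed from WT in mice without ES. The count of genes that passed was 0 of 9 with edgeR, against 4.47% of all tested genes, with 1 gene (17.7% of all tested genes) at an unadjusted p under 0.05. DESeq2 called 0 and limma-voom 1, which was Myc. Myc had 112 and 72.5 CPM in KO NT, against 134 and 141 CPM in WT NT (-0.57 ± 0.15, adjusted p = 0.0574, and 0.0495 with limma-voom). Each KO library was below each WT library, and replicate 2 of KO NT was the lowest of all 8 libraries for this gene. Without KO NT replicate 1, Myc (-0.92, adjusted p = 7.24e-05), Sox9 (-0.36, adjusted p = 0.0177) and Cd44 (-0.31, adjusted p = 0.0299) passed as lower. Without KO NT replicate 2 instead, the differences were -0.28 for Myc (adjusted p = 0.0804), -0.02 for Sox9 (0.942) and 0.004 for Cd44 (0.992), and none passed. KO NT replicate 2 also had a higher sum of enterocyte markers than replicate 1, 1694 against 1153 CPM. WT NT had 1229 to 1234 CPM. For Paneth and stem cell markers, replicate 1 lay farther from WT NT. Its Paneth cell sum was 7918 CPM, against 10038 CPM in replicate 2 and 9953 to 9986 CPM in WT NT. Its stem cell sum was 16487 CPM, against 14700 CPM in replicate 2 and 14291 to 14591 CPM in WT NT. The part of these differences in the result was not tested.

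None of the tested feedback regulators passed between the 2 NT groups, and the groups overlapped for Axin2. Axin2 had 406 and 368 CPM in KO NT, against 402 and 415 CPM in WT NT (-0.08 ± 0.06, adjusted p = 0.557, 95% interval -0.21 to 0.06). Rnf43 (-0.05 ± 0.06), Znrf3 (-0.01 ± 0.08) and Sp5 (0.13 ± 0.12) overlapped as well. Nkd1 had 5.47 and 4.16 CPM in KO NT, against 3.93 and 2.99 CPM in WT NT (0.48 ± 0.22, adjusted p = 0.283). The NT groups of Nkd1 did not overlap, nor did those of Lgr4, Sox9, Cd44 and Myc. With 2 libraries a group this says little, since 52.8% of all tested genes did not overlap in ES against NT in WT. No such share is given here for KO against WT in NT or for ES against NT in KO. Lgr4 had 205 and 208 CPM in KO NT, against 226 and 227 CPM in WT NT (-0.13 ± 0.06, adjusted p = 0.333). Lgr4 held near this value without KO NT replicate 1 or replicate 2 (-0.12 each), and Znrf3 stayed within 0.01 of 0. Without replicate 1 the log2 fold changes were -0.15 for Axin2, -0.12 for Rnf43, -0.04 for Sp5 and 0.26 for Nkd1, and without replicate 2 they were 0.004 for Axin2, 0.03 for Rnf43, 0.29 for Sp5 and 0.67 for Nkd1. None of these passed, and the sign of Axin2, Rnf43 and Sp5 turned with the library left out.

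Under ES, KO mice had more Axin2 RNA than WT mice. Axin2 had 355 and 346 CPM in KO ES, against 280 and 274 CPM in WT ES. The KO libraries lay between WT ES and WT NT, and the rise was 0.34 ± 0.06 (95% interval 0.20 to 0.47, adjusted p = 0.00888), a 1.26-fold level. The call was lost without WT ES replicate 2 (0.33, adjusted p = 0.0804) and held without each of the other 7 libraries. It was the 1 gene of 9 that passed, against 3.09% of all tested genes called higher and 7.56% called in either direction.

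Rnf43, Znrf3, Sp5 and Nkd1 were higher in KO ES without passing, while Notum had fewer counts there, as given further on. Rnf43 had 163 and 159 CPM in KO ES, against 146 and 141 CPM in WT ES (0.16 ± 0.06, adjusted p = 0.157). Znrf3 had 36.2 and 38.8 CPM in KO ES, against 31.6 and 33.9 CPM in WT ES (0.20 ± 0.08, adjusted p = 0.159). Sp5 had 15.8 and 15.2 CPM in KO ES, against 12.5 and 13.3 CPM in WT ES (0.26 ± 0.12, adjusted p = 0.237). None of these groups overlapped, nor did those of Nkd1 (0.23 ± 0.22). Myc had 121 and 112 CPM in KO ES, against 101 and 102 CPM in WT ES (0.20 ± 0.15, adjusted p = 0.470). Lgr4 (-0.08 ± 0.06), Sox9 (0.05 ± 0.09) and Cd44 (-0.06 ± 0.09) were within 0.1 of 0 on the log2 scale. Over the 9 genes the median was 0.20, against 0.004 over all tested genes. The groups did not overlap for 8 of the 9 genes, beside 53.3% of all tested genes, and 3 of the 9 had an unadjusted p under 0.05, beside 22.9%.

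Whether ES acted differently in KO and WT was tested as the KO effect minus the WT effect. No gene passed (0 of 9 with edgeR and limma-voom, against 0.109% of all tested genes by edgeR), 3 had an unadjusted p under 0.05 (11.5% of all tested genes), and DESeq2 called 1, Axin2. For Axin2 the ES effect was -0.14 in KO and -0.56 in WT, a difference of 0.42 ± 0.09 (95% interval 0.23 to 0.61, adjusted p = 0.118, and 0.00458 with DESeq2). For Myc the ES effect was 0.34 in KO and -0.44 in WT, a difference of 0.77 ± 0.21 (adjusted p = 0.191). Without KO NT replicate 1, Axin2 (0.49, adjusted p = 0.00849), Sox9 (0.41, adjusted p = 0.0496) and Myc (1.12, adjusted p = 0.000353) passed. Without KO NT replicate 2 the differences were 0.33 for Axin2 (adjusted p = 0.142), 0.06 for Sox9 (0.858) and 0.48 for Myc (0.0959), none passed, and those of Cd44 (-0.07) and Sp5 (-0.03) were below 0. Rnf43 had a difference of 0.29 without replicate 1 and 0.12 without replicate 2. In the same order the values were 0.20 and 0.19 for Znrf3, -0.03 and -0.45 for Nkd1, and 0.04 and 0.04 for Lgr4. Without replicate 1 the differences were 0.25 for Cd44 and 0.31 for Sp5. A passed fall in WT beside none in KO is thus not shown by edgeR to differ between the genotypes. Of the 9 differences 8 were above 0, with a median of 0.20, against 0.009 over all tested genes, and the exception was Nkd1 (-0.25 ± 0.31). This comparison shares its libraries with the other 4 of the Chrm3 experiment and gives no separate evidence.

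Notum was near the limit of detection. It had 5 and 0 counts in KO ES and none in KO NT, and 14 and 4 counts in WT ES and none in WT NT. A count of 0 allowed up to 0.0953 and 0.102 CPM before scaling in the 2 WT NT libraries, taking 3 counts as the floor per library. With a floor of 3 counts over the WT NT group instead, the 18 counts of WT ES were 6.39-fold that floor, relative to the total counts. This is not a lower limit, since the counting error of the 18 was left out. Of the 18 counts, 14 were in WT ES replicate 1. An exact two-sided permutation test gave p = 0.333, the smallest that 2 against 2 libraries can give, and the unfiltered edgeR fit gave an adjusted p of 0.355. The counts in KO ES were 0.237 times those in WT ES relative to the total counts (95% counting interval 0.0688 to 0.663), and the groups overlapped. Notum overlaps the antisense genes Notumos and Myadml2os, so its few reads may belong to them. Such intervals cover counting error only, and the floors cover none of the error in the group they are set against.

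Old and young stem cells were then compared. No gene of the 10 changed past the threshold with age. The count was 0 of 9 with edgeR, DESeq2 and limma-voom, against 7.84% of all 16807 tested genes by edgeR, with 1 gene at an unadjusted p under 0.05 (21.5% of all tested genes). Axin2 had 335, 309 and 329 CPM in old, against 333, 330 and 324 CPM in young. The groups overlapped, and the interval of -0.13 to 0.09 around a log2 fold change of -0.02 ± 0.05 (adjusted p = 0.876) does not reach the fall of 0.56 seen with ES in WT. Rnf43 had 173, 163 and 179 CPM in old, against 170, 160 and 172 CPM in young (0.03 ± 0.06, adjusted p = 0.805, interval -0.09 to 0.16). Znrf3 had 42.3, 34.9 and 39.0 CPM in old, against 37.5, 40.6 and 37.9 CPM in young (interval -0.18 to 0.18). For Sp5 the spread was wide, with 14.2, 15.2 and 10.4 CPM in old, against 16.5, 11.3 and 11.5 CPM in young (interval -0.36 to 0.41).

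Myc had 97.1, 96.6 and 97.9 CPM in old, against 100.5, 97.8 and 92.6 CPM in young. Its interval of -0.12 to 0.13 was among the narrow ones, and old lay within the range of young. Cd44 was the gene with the unadjusted p under 0.05. It had 136, 134 and 154 CPM in old, against 132, 122 and 129 CPM in young (0.15 ± 0.07, adjusted p = 0.224). Nkd1 had 4.07, 4.91 and 4.66 CPM in old, against 5.66, 5.23 and 5.37 CPM in young (-0.25 ± 0.16, adjusted p = 0.422). Sox9 had 96.0, 98.0 and 97.7 CPM in old, against 112, 99.6 and 99.8 CPM in young (-0.10 ± 0.06, adjusted p = 0.436). In these 3 genes the groups did not overlap, Cd44 being higher and Nkd1 and Sox9 lower in old, beside 26.4% of all tested genes. Lgr4 had a log2 fold change of -0.08 ± 0.06, with overlapping groups.

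Notum had 8, 11 and 5 counts in old, against 2, 3 and 0 counts in young. All 3 old libraries lay above all 3 young libraries, with a ratio, relative to the total counts, of 4.92 (95% counting interval 1.84 to 16.5). The exact two-sided permutation p was 0.1, the smallest that 3 against 3 libraries can give, and the adjusted p in the unfiltered edgeR fit was 0.197. Summed immune cell markers were also higher, at 111 to 126 CPM in old against 34.3 to 64.6 CPM in young. These sums include Lyz2, which is also on the Paneth cell list, at 20.3 to 71.5 CPM in the ageing libraries. The part of the immune cell markers in the Notum counts was not tested.

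**Figure D3:**
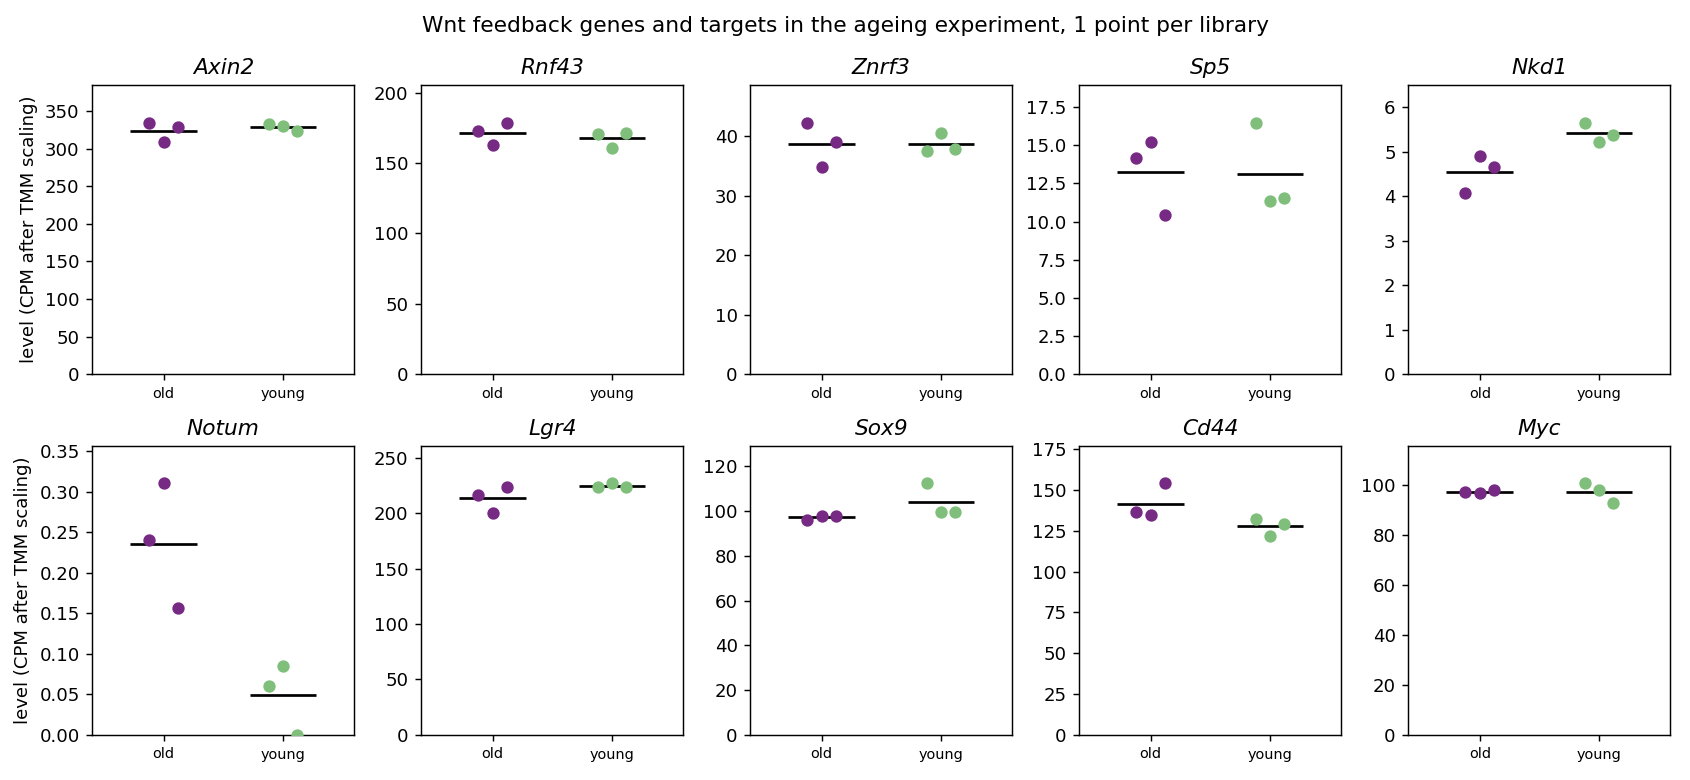
Level of each of the 10 genes (y axes, CPM after TMM scaling, starting at 0) in old and young (x axes), 1 point per library with a bar at the mean of 3 libraries. Axin2 lies between 309 and 335 CPM in all 6 libraries, and Notum is higher in all 3 old libraries than in all 3 young ones.

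The rest of the pathway was taken from lists of 109 other Wnt genes, of which 77 were tested in the Chrm3 table and 73 in the ageing table. The lists were chosen with earlier results of these data known, so their shares in all comparisons are descriptions and not tests. With ES in WT, 11 of the 77 fell and 1 rose, a share of 15.6% beside 3.48% of all tested genes. Frizzled receptors and co-receptors fell in 3 of 14 cases, Fzd7 (-0.54 ± 0.09), Fzd2 (-0.62 ± 0.13) and the pseudokinase co-receptor Ptk7 (-0.62 ± 0.11). Among nuclear partners of beta-catenin 1 of 15 fell, the Groucho co-repressor Tle3 (-0.36 ± 0.07). Other intestinal Wnt targets fell in 7 of 19 cases, including the transcription factor Sox4 (-0.56 ± 0.05) and the Myc-interacting factor Cdca7 (-0.51 ± 0.06). The metalloprotease Mmp7, which is also a Paneth cell gene, rose in WT (0.70 ± 0.07) and in KO (0.83 ± 0.07, the single Wnt gene of 77 that passed there). None of 6 Wnt ligands, 6 secreted or membrane inhibitors and 18 genes of the destruction complex and its cytoplasmic partners passed in WT, and no R-spondin had enough counts to be tested.

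Several of these calls were lost when a library of the comparison was left out, with fold changes of similar size. With ES in WT, Fzd7 lost its call without WT ES replicate 2, WT NT replicate 1 or WT NT replicate 2 (adjusted p = 0.0789, 0.143 and 0.142, against 0.0114 with all libraries). Without WT ES replicate 1, WT ES replicate 2, WT NT replicate 1 or WT NT replicate 2, adjusted p was 0.0574, 0.116, 0.174 and 0.142 for Ptk7 (0.0165 with all), 0.191, 0.106, 0.108 and 0.278 for Fzd2 (0.0308 with all) and 0.0963, 0.139, 0.190 and 0.189 for Tle3 (0.0179 with all). In these fits the log2 fold change was between -0.55 and -0.42 for Fzd7, -0.74 and -0.52 for Ptk7, -0.74 and -0.49 for Fzd2, and -0.40 and -0.32 for Tle3. Cdca7 lost its call without WT NT replicate 2 (-0.52, adjusted p = 0.0559, against 0.00181 with all). Sox4 and Mmp7 kept theirs whichever of the 8 libraries was left out.

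In NT, 4 of the 77 genes (5.19%, beside 4.47% of all tested genes) were lower in KO than in WT, all of them among the intestinal targets. The 3 with the smallest p were Mmp7 (-0.46 ± 0.07), Cdca7 (-0.29 ± 0.06) and the ion transporter Slc12a2 (-0.24 ± 0.05). Without WT NT replicate 1 or replicate 2, adjusted p was 0.0762 and 0.0702 for Mmp7, 0.188 and 0.163 for Cdca7 and 0.169 and 0.263 for Slc12a2, and Cdca7 was also lost without KO NT replicate 2 (0.0778). Of the cell type markers in this comparison, 8 of 8 for goblet cells, 4 of 5 for tuft cells, 2 of 12 for Paneth cells, 2 of 10 for stem cells and 1 of 7 for enteroendocrine cells were lower in KO NT, and 1 of 9 for enterocytes was higher. Their part in these results was not tested.

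Under ES, 7 of the 77 genes were higher and 1 was lower in KO than in WT, a share of 10.4% beside 7.56% of all tested genes. The higher ones included Fzd2 (0.57 ± 0.13), the casein kinase Csnk1e (0.35 ± 0.09), the transcriptional regulator Id2 (0.65 ± 0.10), Sox4 (0.28 ± 0.05) and the BMP co-receptor Rgmb (0.41 ± 0.08). Of these, Id2 kept its call whichever library was left out. Without KO ES replicate 1, KO ES replicate 2, WT ES replicate 1 or WT ES replicate 2, adjusted p was 0.0763, 0.109, 0.150 and 0.0934 for Fzd2 and 0.142, 0.154, 0.172 and 0.202 for Csnk1e, which was lost without WT NT replicate 1 or 2 as well (0.0814 and 0.0822). Sox4 was lost without KO ES replicate 2, WT ES replicate 1 or WT ES replicate 2 (0.0706, 0.0753 and 0.0706), and Rgmb without KO ES replicate 1 or WT ES replicate 2 (0.0630 and 0.123). In the KO minus WT difference of the ES effects, Sox4 was the single pathway gene that passed (0.50 ± 0.07, adjusted p = 0.0475), and it passed without KO NT replicate 1 or 2 only, with adjusted p from 0.116 to 0.363 without each of the 6 KO ES, WT ES and WT NT libraries.

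With age, 4 of the 73 pathway genes rose and 5 fell, a share of 12.3% beside 7.84% of all tested genes. The co-receptor Lrp6 rose (0.28 ± 0.06), and so did the Groucho co-repressors Tle1 (0.53 ± 0.07) and Tle4 (0.31 ± 0.08) and the target Rgmb (0.27 ± 0.06). The receptors Fzd6 (-0.43 ± 0.11) and Fzd7 (-0.33 ± 0.09), the secreted inhibitor Sfrp5 (-0.50 ± 0.08), the stem cell factor Ascl2 (-0.62 ± 0.11) and Sox4 (-0.25 ± 0.06) fell. Tle1, Sfrp5 and Ascl2 kept their calls whichever of the 6 libraries was left out. The others did not: Lrp6 was lost without old replicate 1, young replicate 1 or young replicate 2 (adjusted p = 0.0728, 0.0783 and 0.0900), and Rgmb without the same 3 libraries (0.0834, 0.0627 and 0.101). Tle4 was lost without old replicate 1, old replicate 2, young replicate 1 or young replicate 2 (0.147, 0.117, 0.147 and 0.132), and Sox4 without old replicate 1, old replicate 2, young replicate 2 or young replicate 3 (0.0950, 0.0854, 0.115 and 0.0888). Fzd7 was lost without old replicate 2, old replicate 3, young replicate 1 or young replicate 2 (0.129, 0.0885, 0.166 and 0.161). Fzd6 passed without old replicate 3 alone, with adjusted p from 0.0696 to 0.142 without each of the others.

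Markers of other cell types also moved with age. Tuft cell markers summed to 65.7 to 66.2 CPM in old against 118 to 146 CPM in young, with 4 of 5 tested markers fallen. Enteroendocrine markers summed to 304 to 431 CPM in old against 207 to 231 CPM in young, with 4 of 7 risen. Of the immune cell markers 4 of 6 rose, and of the Paneth cell markers 4 of 12 fell. Goblet cell markers rose in 3 and fell in 2 of 8 cases, enterocyte markers rose in 2 of 9 cases, and stem cell markers rose in 1 and fell in 1 of 10 cases. The part of these shifts in the ageing results was not tested.

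Cell type markers moved with the groups and are given beside these results, since in bulk libraries fewer cells of a type and less RNA per cell cannot be told apart. None of the 10 genes is on these marker lists. Stem cell markers summed to 11238 to 11580 CPM in WT ES against 14291 to 14591 CPM in WT NT, with 8 of 10 fallen. Goblet cell markers summed to 10138 to 10349 CPM in WT ES against 4991 to 5106 CPM in WT NT, and all 8 rose. The fall of Axin2 and Rnf43 in WT ES thus stood beside a lower stem cell sum and a higher goblet cell sum. In KO the stem cell sums were 14161 to 14910 CPM in ES against 14700 to 16487 CPM in NT, with 0 of 10 passing. The goblet cell sums in KO were 4327 to 4365 against 2539 to 2610 CPM, with 7 of 8 risen. The stem and goblet cell sums rest mostly on Olfm4 and Fcgbp, at medians of 10654 and 3063 CPM over the Chrm3 libraries. Lgr5 was at a median of 116 CPM there. In NT the stem cell sums were higher in KO than in WT, although 2 of the 10 markers were lower in KO and 0 higher. Between KO ES and WT ES, 5 of the 10 stem cell markers were higher and 1 lower, and 8 of 8 goblet cell markers were lower. In the same comparison 7 of 9 enterocyte markers (median -1.49), 5 of 7 enteroendocrine, 2 of 5 tuft and 2 of 12 Paneth cell markers were lower. With ES in WT, 3 of 12 Paneth, 3 of 7 enteroendocrine and 2 of 9 enterocyte markers rose, and with ES in KO 6 of 12 Paneth markers rose and 3 of 9 enterocyte markers fell. Paneth cell sums were 12384 to 12842 CPM in KO ES and 7918 to 10038 CPM in KO NT, and 11759 to 12533 CPM in WT ES and 9953 to 9986 CPM in WT NT. The part of cell composition in the Axin2 and Rnf43 results was not tested. Several pathway targets named above, among them Rgmb, Cdca7, Slc12a2 and Ascl2, are also on the stem cell list, so these counts are not separate evidence.

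**Figure D4:**
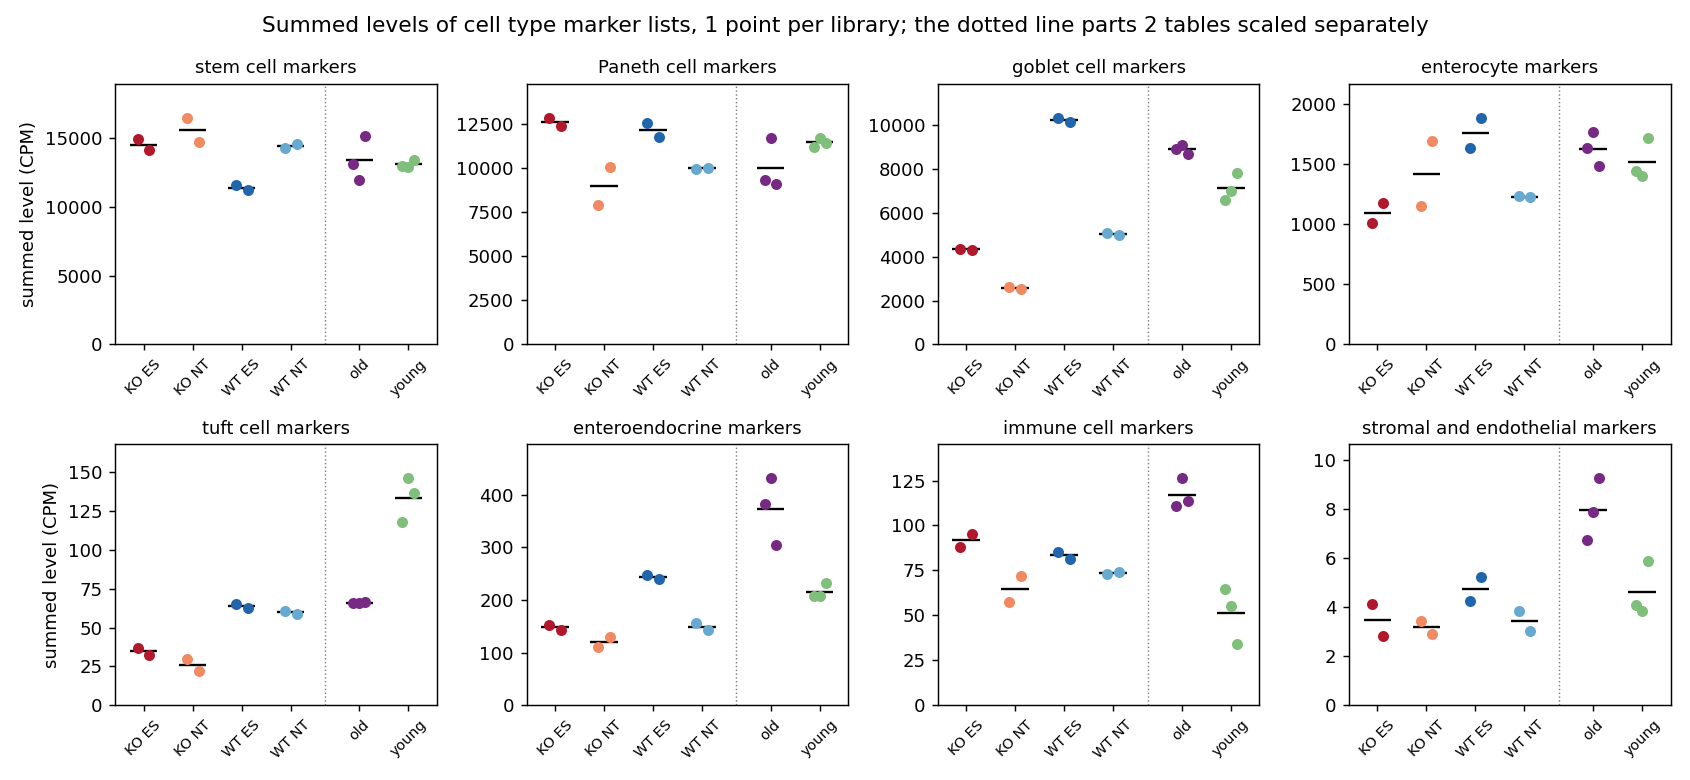
Summed level (y axes, CPM, starting at 0) of 8 lists of cell type markers in KO ES, KO NT, WT ES, WT NT, old and young (x axes), 1 point per library with a bar at the mean. The dotted line parts the Chrm3 and ageing tables, which were scaled separately. The stem cell sum is lowest and the goblet cell sum highest in WT ES among the 4 Chrm3 groups.

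Genes were last ranked by how closely their pattern over the 8 Chrm3 libraries followed that of Axin2. The measure was the root mean square difference of log2(CPM + 0.01) after each gene's mean over the 8 libraries was subtracted, and 9224 genes with at least 10 CPM on average were ranked. The 5 nearest were Rgmb (0.0502), the kinase gene Hunk (0.0506), the Hedgehog signal transducer Smo (0.0540), the potassium channel subunit Kcne3 (0.0548) and the pseudouridine synthase Pus7 (0.0613), where Axin2's own deviation from its mean was 0.218. Rgmb, for example, had 256 and 241 CPM in KO ES, 291 and 252 CPM in KO NT, 197 and 176 CPM in WT ES and 286 and 284 CPM in WT NT. Its WT ES libraries were the lowest, as they were for Axin2, and KO NT replicate 1 was its highest. Of the other 9 genes, Sp5 (rank 48), Rnf43 (rank 75) and Znrf3 (rank 77) were the closest, at 0.0950 to 0.107. Sox9 stood at rank 515, Cd44 at 2283, Lgr4 at 5496 and Myc at 6771, and Nkd1 and Notum were below the level for ranking. Over the Chrm3 libraries, Sp5, Rnf43 and Znrf3 were thus nearer to Axin2 in this measure than Sox9, Cd44, Myc and Lgr4. Since the feedback genes Nkd1 and Notum were not ranked, this is not shown for feedback genes as a set.

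Over the 6 ageing libraries, where Axin2 deviated from its mean by 0.0387, the same 5 genes lay at 0.150 (Rgmb), 0.174 (Hunk), 0.0942 (Smo), 0.214 (Kcne3) and 0.121 (Pus7) from it. Since the 5 were picked for their nearness in the Chrm3 libraries, the 2 sets of distances cannot be compared. Of the genes not picked in this way, Lgr4 lay at 0.0396, Myc at 0.0404, Rnf43 at 0.0506 and Znrf3 at 0.0612 from Axin2 in the ageing libraries. Sox9 lay at 0.0743, Cd44 at 0.107 and Sp5 at 0.251. Sp5, the closest of these genes over the Chrm3 libraries, was thus the farthest of them over the ageing libraries. These distances are descriptions over libraries that share the 4 Chrm3 groups.

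**Figure D5:**
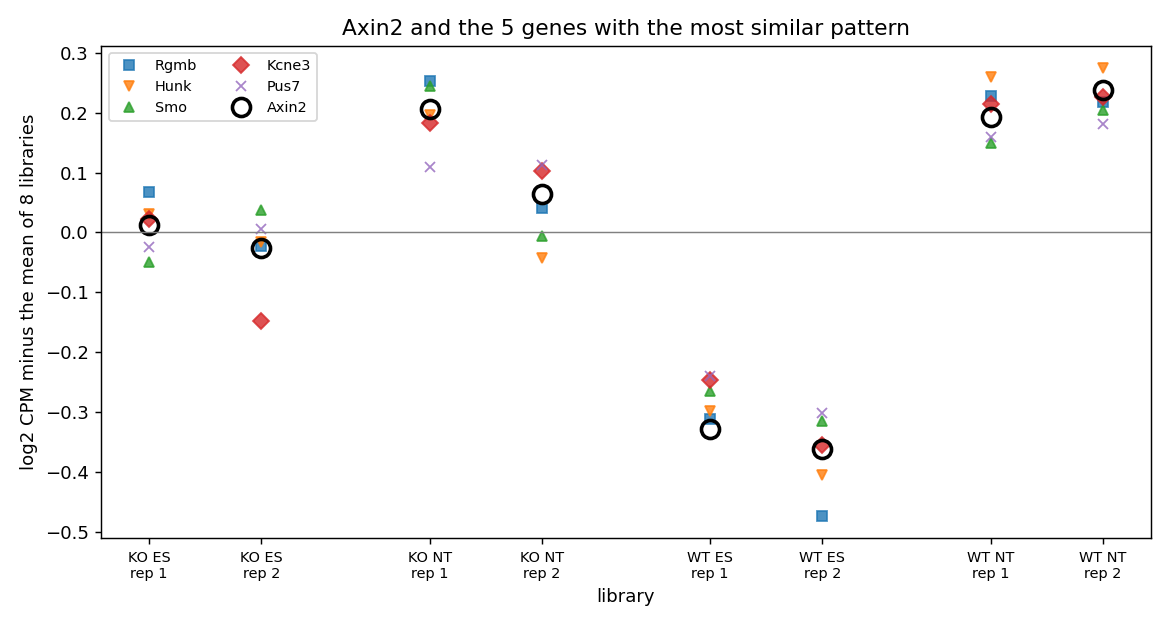
Log2 CPM minus the gene's mean over 8 libraries (y axis) for Axin2 (open circles) and the 5 genes nearest to it, in each of the 8 Chrm3 libraries (x axis). All 6 genes have their lowest values in the 2 WT ES libraries.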

How the data were processed

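The samples were 14 libraries of polyadenylated RNA from sorted Lgr5-positive mouse cells, prepared with a strand-specific TruSeq kit, per the labels' protocols. The authors deposited raw counts per Ensembl gene in 2 tables, 1 of 8 Chrm3 libraries and 1 of 6 ageing libraries. The submitters' processing notes name mm10 and FastQC 0.11.2, and no source used here gives the aligner or counter. The table's Ctrl libraries were read as NT. Of 55335 identifiers, 55154 were matched to GENCODE M21.

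Each table was filtered (filterByExpr), scaled (TMM) and fitted separately with edgeR 4.0.16 (R 4.3.3), using the current form of the quasi-likelihood test and 1 mean per group over all libraries of the table. SEs were derived from the F statistic. The tests were checked on simulated data. Total counts of 26.7 to 36.9 M limit precision for genes at a few counts, such as Notum. Alternatives were DESeq2 1.42.0, limma-voom (limma 3.58.1), RLE size factors, other count filters and thresholds, a replicate block, only the groups compared, and each library left out. The older quasi-likelihood form was added after seeing the data.

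The 10 genes and all lists were chosen with earlier results of these data known. From each Wnt list and comparison, up to 3 genes that passed were named by smallest p, with a mean of at least 1 CPM. Marker genes are given as sums.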

Additional observations from a re-analysis of the deposited data

How the results depend on the processing

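With ES against NT in WT the count of 2 genes passing was 4 with DESeq2, 1 with no count filter, 6 with only the groups compared and 1 at an adjusted p of 0.01, and 0 to 5 with 1 library left out. For KO against WT in NT the count of 0 was 1 with limma-voom, 1 with the replicate block and 1 at an adjusted p of 0.1, and 0 to 3 with 1 library left out. Between the ES effects of KO and WT the difference had 0 genes, 1 with DESeq2, and 0 to 3 with 1 library left out. ES against NT in KO had 0 to 1 and KO against WT in ES 0 to 1 with 1 library left out, and old against young had 0 throughout. The cause of these shifts was not tested. Of 828 recomputed log2 fold changes of single genes, 784 kept their side of the threshold, 24 came to pass, 9 ceased to pass, and 11 that passed in neither fit changed sign by more than an SE. The share of all genes called moved too, for ES against NT in WT between 0.386% and 11.4% over the alternatives and between 0.125% and 6.62% with 1 library left out.

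Whether replicate numbers pair the libraries was not settled, and the main fit took them as unpaired. Same-numbered libraries correlated at 0.047 to 0.1805 in 3 ageing pairs and at -0.0054 to 0.2071 in 12 Chrm3 pairs. Each Chrm3 value stands for 2 pairs, since the 2 libraries of a group deviate from its mean by equal and opposite amounts. Differently numbered pairs give its negative. The 3 deviations within an ageing group also cancel out, so those values constrain each other. Each old library correlated most with the young library of its own number. Young replicate 1, however, correlated with old replicate 2 (0.0473) as highly as with old replicate 1 (0.047). In the Chrm3 table the value of 0.2071 was between KO ES and KO NT, and the other group pairs were at -0.0054 to 0.0692. With the replicate block 3 genes passed with ES in WT (Znrf3 at adjusted p = 0.0333) and 1 in KO against WT in NT (Myc at 0.0252). With 2 libraries per group, a left-out library leaves 1 in its group, which was assumed to vary like the other groups.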
